A study of Mus musculus with 12 samples.

Results

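Verapamil, one of the 2 compounds given to these mice, blocks L-type voltage-gated calcium channels, and the genes described here encode the subunits from which these channels are built. They were chosen by symbol: Cacna1c and Cacna1d, which encode the pores Cav1.2 and Cav1.3, Cacnb1, Cacnb2, Cacnb3 and Cacnb4, which encode the beta subunits, and Cacna2d1, Cacna2d2 and Cacna2d3, which encode the alpha2delta subunits. All 9 were among the 17202 genes of the table of normalized counts, and all 9 were among the 17111 genes tested. RNA of the frontal cortex was sequenced from 12 male mice, 3 in each of 4 groups. VEH-WT and VEH-CD mice received vehicle and are called untreated in the labels, whereas VERCUR-WT and VERCUR-CD mice received curcumin and verapamil together. CD mice are heterozygous for a deletion on chromosome 5 that runs from Gtf2i to Fkbp6, a model of Williams-Beuren syndrome with 1 remaining copy of each deleted gene in all cells. Mice of both genotypes were on a C57BL/6J background, and the CD line had been crossed with Thy1-YFP mice, in which a neuronal promoter drives a fluorescent protein. According to the labels, curcumin was dosed at 60 mg/kg/day and verapamil at 10 mg/kg/day, both for 1 month from week 8, and the mice were 16 weeks old. The methods of the study give a lower dose of verapamil and a younger age, so the exposure behind these values is not certain. No mice given verapamil alone were analysed here, and a difference between VERCUR and VEH groups belongs to the combination.

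L-type channels open when the membrane is strongly depolarized, and the calcium that enters through them acts in neurons on excitability and on signalling from the membrane to the nucleus. The pore subunit carries the channel, the voltage sensor and the site to which verapamil binds. Beta subunits sit on the inner side of the membrane, bring the pore to the surface and set its gating, while alpha2delta subunits lie outside the cell, help traffic the channel and bind the drug gabapentin in the case of Cacna2d1 and Cacna2d2. Beta and alpha2delta subunits also serve the P/Q-, N- and R-type channels, so their transcripts are not those of L-type channels alone. The question put to these data was whether the transcripts of the target of verapamil differed with the co-treatment or with the genotype.

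The libraries held between 40287646 and 56480948 reads counted on genes, with a median of 51957320. The lowest number of reads on any member in any mouse was 1226, on Cacna2d2, for which counting error alone gives an SD of 2.86%. It was smallest for Cacnb3, at no more than 0.81%, and the CVs of the members over the 12 mice, from 5.09% to 17.2%, were all larger. These figures cover counting error only. The deletion was seen as labelled: Limk1, within the deleted interval, had 1716 to 1994 normalized counts in CD mice and 4112 to 4567 in WT mice. Cacna2d1 also lies on chromosome 5, but 117.9 megabases from the deleted interval. Markers of neurons were high in every library, with a summed level that differed 1.13-fold between the lowest and the highest library, and markers of cortical projection neurons differed 1.30-fold. Markers of striatal neurons differed 4.72-fold, and those of oligodendrocytes 2.87-fold. Of the cerebellar markers, Pcp2 and Gabra6 were not in the table. The library of VERCUR-CD mouse 2 stood apart: its median correlation with the other libraries, 0.9876 across genes, was the lowest of the 12. Among the 9683 genes with a mean of at least 500, those with a great summed exon length or low GC content were high in this library. Relative to the median over all mice, the median was 0.20 (log2) for the 20% of genes with the greatest summed exon length. It was 0.20 for the 20% of lowest GC content, against -0.13 for the 20% with the smallest summed exon length and -0.15 for the 20% of highest GC content.

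Cacna1c (ENSMUSG00000051331.15) lies on the minus strand of GRCm38 at chr6:118587240-119196418, a span of 609.2 kb with 21.2 kb of exon in GENCODE M21. Cacna1d (ENSMUSG00000015968.17) lies on the minus strand at chr14:30039939-30491455, with 12.6 kb of exon. The genes of the beta subunits are at chr11:98001508-98023034 (Cacnb1), chr2:14603088-14987908 (Cacnb2), chr15:98630840-98644529 (Cacnb3) and chr2:52428320-52676831 (Cacnb4). The genes of the alpha2delta subunits are at chr5:15934691-16374511 (Cacna2d1), chr9:107399612-107529343 (Cacna2d2) and chr14:28904943-29721864 (Cacna2d3). GC content was taken from the longest annotated transcript of each gene. It was 39.0% for Cacnb2, 40.5% for Cacnb4 and 40.7% for Cacna2d1, and between 49.1% and 50.3% for Cacna2d3, Cacna1d and Cacna1c. It reached 55.8% for Cacna2d2, 59.7% for Cacnb1 and 61.3% for Cacnb3, and the last 2 had only 4.5 kb and 4.0 kb of exon. Exons of Cacna1d share 589 bases with Chdh and those of Cacnb4 share 1433 bases with A430018G15Rik, both on the opposite strand. As the strand setting of the counting is not given in the sources used here, reads over these bases cannot be assigned, but Chdh and A430018G15Rik averaged only 185 and 30.9 normalized counts.

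The promoters of Cacna1c, Cacna1d and Cacna2d1 are shown because these 3 genes were highest in the same library, as described further on, and that of Cacna2d3 because it was not. That library was VERCUR-CD mouse 2, in which Cacnb4, whose promoter is not shown, was also highest. The promoters shown are the bases before 1 annotated start of each gene (RefSeq, GRCm38.p6), the GC-rich start where a gene had several. They are written 5′ to 3′ on the strand of the gene. Capitals mark the GC box GGGCGG or its complement CCGCCC, with overlapping matches joined. The windows are chr6:119108574-119108745 (minus strand, cut to 172 bases so as to leave out annotated exon), chr14:30353487-30353736 (minus strand), chr5:15934441-15934690 (plus strand) and chr14:29721865-29722114 (minus strand).
Cacna1c: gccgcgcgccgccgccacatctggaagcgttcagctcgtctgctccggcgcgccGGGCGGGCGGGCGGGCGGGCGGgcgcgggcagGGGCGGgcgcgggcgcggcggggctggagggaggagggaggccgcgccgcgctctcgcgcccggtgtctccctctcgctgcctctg
Cacna1d: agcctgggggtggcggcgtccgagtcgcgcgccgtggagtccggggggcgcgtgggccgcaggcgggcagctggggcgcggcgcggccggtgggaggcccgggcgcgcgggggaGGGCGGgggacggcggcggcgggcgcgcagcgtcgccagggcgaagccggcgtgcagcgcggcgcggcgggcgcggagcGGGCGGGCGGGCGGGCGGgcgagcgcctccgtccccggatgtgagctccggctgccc
Cacna2d1: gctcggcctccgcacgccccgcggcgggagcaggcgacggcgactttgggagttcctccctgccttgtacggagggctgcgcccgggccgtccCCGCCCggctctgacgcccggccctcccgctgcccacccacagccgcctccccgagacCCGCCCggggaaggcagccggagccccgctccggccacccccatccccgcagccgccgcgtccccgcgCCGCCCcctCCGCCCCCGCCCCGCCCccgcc
Cacna2d3: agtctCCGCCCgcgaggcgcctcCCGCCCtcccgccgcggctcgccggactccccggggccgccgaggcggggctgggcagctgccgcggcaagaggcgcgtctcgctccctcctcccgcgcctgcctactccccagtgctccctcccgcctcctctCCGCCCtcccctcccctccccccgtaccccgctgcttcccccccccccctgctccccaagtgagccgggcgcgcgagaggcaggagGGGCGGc

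All 9 members had entries among the RefSeq promoters, with 17 starts in all. Each of the 9 had GGGCGG on either strand within the 250 bases before exactly 1 of its starts, so that 9 of 17 windows held it, beside 32.7% of all 32851 windows of that length. The windows shown for Cacna1c, Cacna1d and Cacna2d1 had a GC content of 82.8%, 86.4% and 82.4% over the full 250 bases. The median over all windows was 52.4%. The window of Cacna2d3 was the least GC-rich of the 4 but also above this median. The starts shown for Cacna1c and Cacna1d were chosen for their GC content, so their place above the median was set in advance. The other starts had 51.6% and 50.4% for Cacna1c and 39.6% for Cacna1d. The 4 genes shown all had a GC-rich start with this motif. Whether either feature bears on their levels was not tested. Counts per gene do not tell from which of several starts a transcript came, and Cacna1c has 3 annotated starts and Cacna1d 2.

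**Figure D1:**
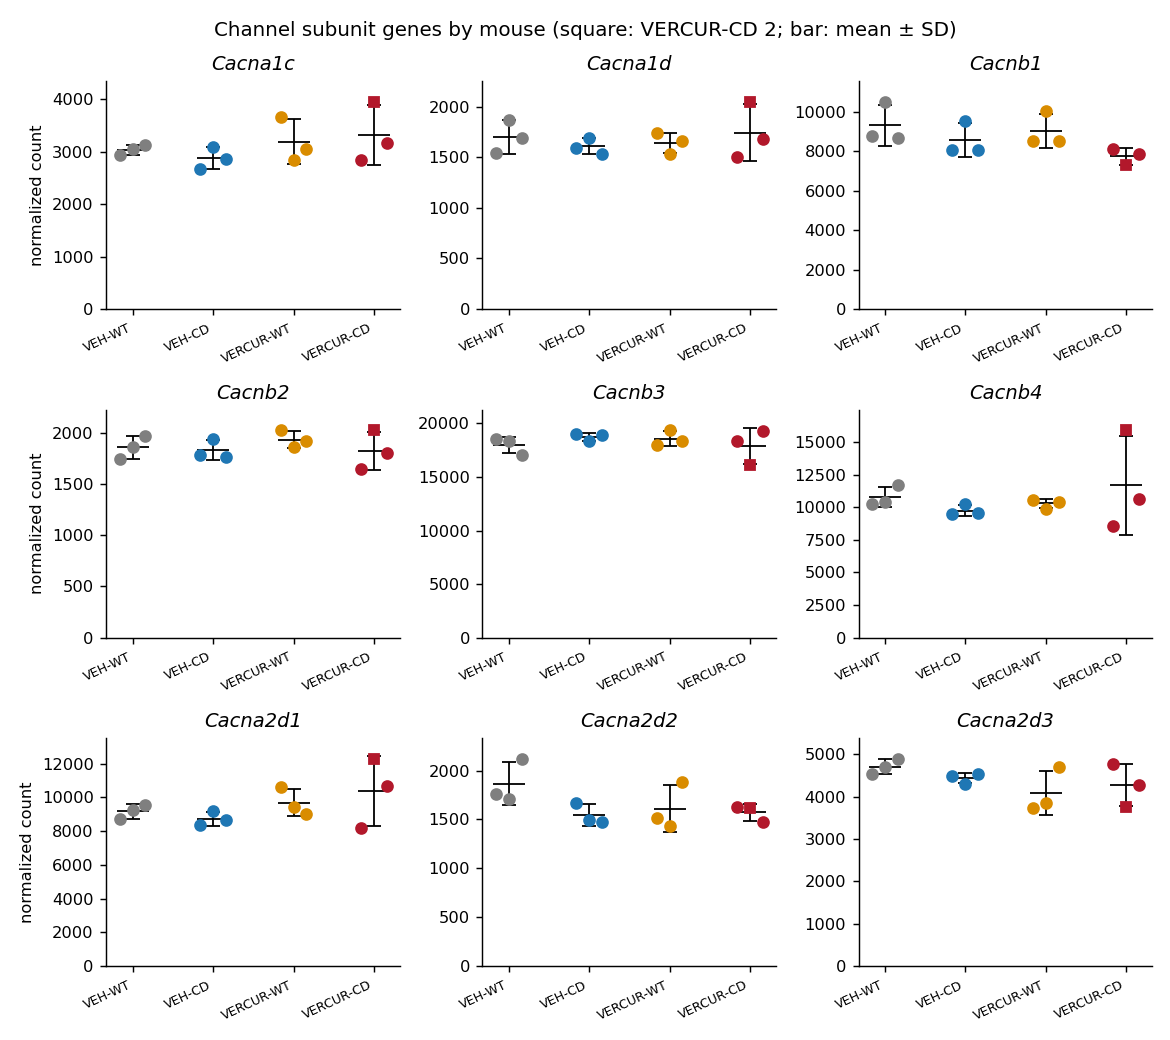
Normalized count (linear axis from 0) of each of the 9 subunit genes in each of the 12 mice, with the mean and SD of each group of 3 in black. Points of 1 group stand in the order of the replicate numbers, and the square marks VERCUR-CD mouse 2, the highest of the 12 for Cacna1c, Cacna1d, Cacnb4 and Cacna2d1 and the lowest for Cacnb1 and Cacnb3.

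The levels of the subunits differed widely between genes and little between groups. To compare genes, normalized counts were divided by the length of all annotated exons in kb. Cacnb3 was the highest, at 4565 ± 232 per kb (SD, n = 12 mice), followed by Cacnb1 at 1916 ± 207, Cacnb4 at 1185 ± 204 and Cacna2d1 at 764 ± 94.5. Below them were Cacna2d3 at 502 ± 45.9, Cacna2d2 at 207 ± 25.5, Cacna1c at 147 ± 17.2, Cacnb2 at 141 ± 8.82 and Cacna1d at 133 ± 12.5. Among neighbours in this order, the ranges over the 12 mice were separate for Cacnb3 and Cacnb1, for Cacna2d1 and Cacna2d3, and for Cacna2d3 and Cacna2d2. Cacnb1 was above Cacnb4 in 11 of 12 mice, the exception being VERCUR-CD mouse 2. Cacna1c, Cacnb2 and Cacna1d had overlapping ranges, and Cacna1c was above Cacnb2 in only 7 of 12 mice. Exon length matters here: per kb of the longest transcript, Cacnb2 stood at 370, above Cacna2d2 at 284, Cacna1c at 236 and Cacna1d at 173, and Cacnb4, Cacna2d1 and Cacna2d3 lay close together at 1291, 1276 and 1185.5. On either length, the pore genes were far below Cacnb3.

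Within the pore class, the make-up was similar in the 4 groups. Of the summed level of Cacna1c and Cacna1d per kb, Cacna1c made up 51.6% ± 2.1 (SD, n = 3 mice here and for each group) in VEH-WT and 51.6% ± 1.4 in VEH-CD. In the co-treated groups it made up 53.5% ± 1.9 (VERCUR-WT) and 53.1% ± 0.3 (VERCUR-CD). Over all mice its share ran from 49.3% to 55.8%, and this measure depends on the exon length taken. Cacnb3, the main beta subunit by this measure, gave between 53.1% and 61.4% of the beta transcripts, Cacnb1 between 21.4% and 28.3%, Cacnb4 between 12.8% and 23.5%, and Cacnb2 between 1.7% and 2.0%. Cacna2d1 gave between 46.6% and 60.9% of the alpha2delta transcripts, Cacna2d3 between 26.6% and 38.8%, and Cacna2d2 between 12.1% and 16.7%. The lowest share of Cacnb3, the highest of Cacnb4, the highest of Cacna2d1 and the lowest of Cacna2d3 all came from VERCUR-CD mouse 2. In the other 11 mice the order within the beta class was Cacnb3, Cacnb1, Cacnb4 and Cacnb2.

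**Figure D2:**
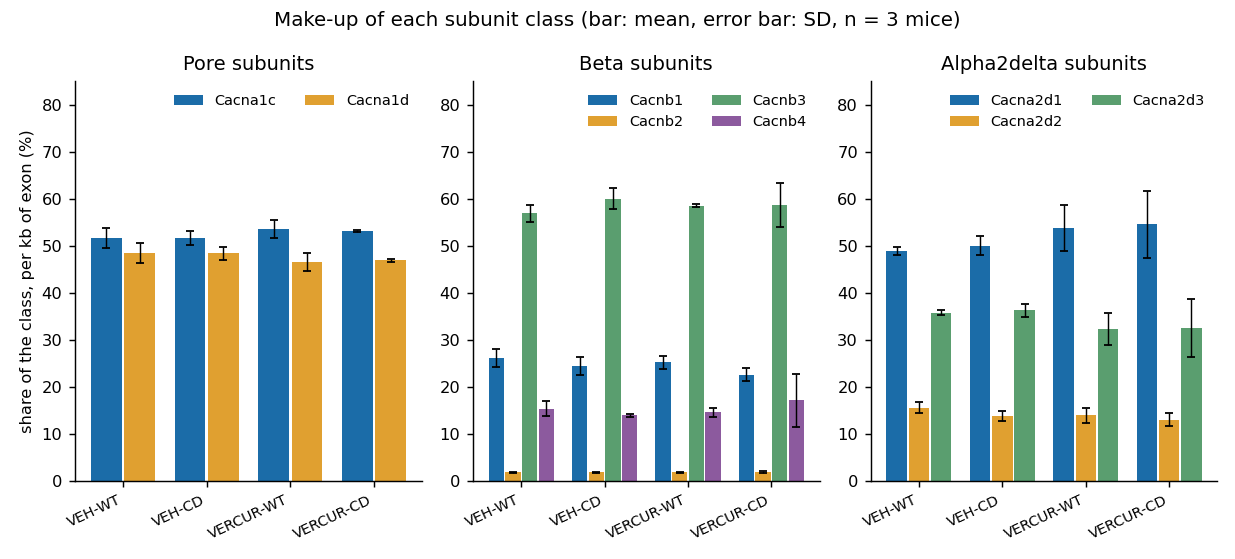
Share of each gene in the summed level of its subunit class (percent, normalized counts per kb of exon), by group; bars are means and error bars SDs of 3 mice. Cacna1c makes up 51.6% to 53.5% of the pore class by group, Cacnb3 leads the beta class and Cacna2d1 the alpha2delta class in each group, and the widest error bars are those of VERCUR-CD.

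The co-treatment did not change any of the 9 genes past the threshold. A gene was called when its adjusted p was under 0.05 (limma, Benjamini-Hochberg over all genes tested) and its level differed by at least 25%. Of all genes tested, 0% were called for the co-treatment in WT, 0% in CD and 0% averaged over genotypes, so the count of 0 of 9 members does not set them apart. At an unadjusted p under 0.05, 5.22% of all genes passed in WT and 1 member did, 3.54% passed in CD and 0 members did, and 2.96% passed averaged over genotypes and 0 members did. The median log2 fold change of the members averaged over genotypes was 0.03 beside 0.00 for all genes. Averaged over genotypes, with 6 mice against 6, the 95% intervals of all 9 members lay between -0.28 and 0.33 on the log2 scale, that is, between 0.824-fold and 1.26-fold. These are the outer limits of 9 intervals, which are not adjusted for the number of genes. A change beyond them is outside the interval of every member. Single intervals were narrower, such as -0.11 to 0.09 for Cacnb3. For each gene, changes within its own interval could not be told from none.

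Cacna1c, which encodes the main L-type pore of the brain, had 2943, 3048 and 3127 normalized counts in VEH-WT, 3672, 2853 and 3052 in VERCUR-WT, 2674, 3096 and 2868 in VEH-CD, and 2848, 3956 and 3162 in VERCUR-CD. The treated groups overlapped the vehicle groups in both genotypes, and the highest mice were VERCUR-WT mouse 1 and VERCUR-CD mouse 2. Averaged over genotypes, the log2 fold change was 0.13 (95% interval -0.05 to 0.31, adjusted p = 1.00), and 0.06 without VERCUR-CD mouse 2. In CD it was 0.20 (-0.06 to 0.45, adjusted p = 0.867), which also became 0.06 without that mouse and rose to 0.30 without VERCUR-CD mouse 1.

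Cacna1d, the pore that opens at less depolarized potentials and takes part in pacemaking, had 1540.05, 1870.48 and 1688 normalized counts in VEH-WT and 1734, 1535 and 1657 in VERCUR-WT. It had 1595, 1690.08 and 1534 in VEH-CD and 1501, 2047 and 1680.3 in VERCUR-CD. The highest and the lowest of all 12 values were both in VERCUR-CD, so that this group alone spanned the others. The difference averaged over genotypes was 0.03 (95% interval -0.13 to 0.19, adjusted p = 1.00), and it was -0.03 without VERCUR-CD mouse 2.

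Among the beta subunits, Cacnb3 was the steadiest of the members, with a CV of 5.09% over the 12 mice. It ran from 17085 to 18529 normalized counts in VEH-WT, from 18018 to 19364 in VERCUR-WT, from 18359 to 19012 in VEH-CD and from 16072 to 19291 in VERCUR-CD. The co-treatment difference averaged over genotypes was -0.01, with the narrowest interval of the members, -0.11 to 0.09. Cacnb2, a subunit best known from the heart, ranged from 1651 to 2025 normalized counts, and its difference was 0.03 (-0.10 to 0.15). The signs of both turned when libraries were smoothed on exon length and GC content, with values of 0.0327 for Cacnb3 and -0.0378 for Cacnb2. Cacnb1, known as the beta subunit of skeletal muscle and also made in brain, had a difference of -0.09 (-0.24 to 0.05), or -0.05 without VEH-WT mouse 2.

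Cacnb4, the beta subunit whose loss causes the ataxia of the lethargic mouse, was the most variable member, with a CV of 17.2%. It had 10227, 10417 and 11665 normalized counts in VEH-WT, 10552, 9895 and 10407 in VERCUR-WT, 9465, 10208 and 9528 in VEH-CD, and 8561, 15898 and 10602 in VERCUR-CD. The value of VERCUR-CD mouse 2 was 1.86 times that of mouse 1 of the same group. In CD the co-treatment difference was 0.22 (95% interval -0.13 to 0.56, adjusted p = 0.867), and it was -0.03 without mouse 2 and 0.42 without mouse 1. Leaving out 1 mouse thus changed both the size and the sign of this value.

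Cacna2d1, the highest alpha2delta gene per kb of all annotated exons, had 8713, 9243 and 9539.76 normalized counts in VEH-WT and 10606, 9412 and 9040.34 in VERCUR-WT. It had 8353, 9189 and 8679 in VEH-CD and 8155, 12292 and 10646 in VERCUR-CD. Its difference averaged over genotypes, 0.15 (95% interval -0.03 to 0.33, adjusted p = 1.00), was the highest of the 9, and it ranged from 0.09 without VERCUR-CD mouse 2 to 0.23 without VERCUR-CD mouse 1. In CD the value was 0.23 (adjusted p = 0.867), which became 0.09 and 0.39 without these mice. Groups overlapped in each genotype.

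Cacna2d2, an alpha2delta gene with a prominent role in cerebellar Purkinje cells and inhibitory neurons, had 1763, 1712 and 2121 normalized counts in VEH-WT, 1512, 1430.04 and 1880.17 in VERCUR-WT, 1669, 1491 and 1469 in VEH-CD, and 1624, 1615 and 1473 in VERCUR-CD. The co-treatment difference was -0.22 in WT (95% interval -0.45 to 0.02, adjusted p = 0.951) and 0.03 in CD (-0.21 to 0.26). The value in WT was -0.12 without VEH-WT mouse 3 and -0.34 without VERCUR-WT mouse 3. The test of the difference between these effects gave 0.24 (-0.09 to 0.58, adjusted p = 0.818), or 0.15 without VEH-WT mouse 3.

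Cacna2d3, an alpha2delta gene linked to hearing and pain, had 4529, 4709 and 4899 normalized counts in VEH-WT, 3737, 3856 and 4693 in VERCUR-WT, 4496, 4300.25 and 4527 in VEH-CD, and 4769, 3766 and 4285 in VERCUR-CD. The 3 lowest values were those of VERCUR-WT mice 1 and 2 and VERCUR-CD mouse 2, and the third VERCUR-WT mouse lay within the range of VEH-WT. In WT the difference was -0.21 (95% interval -0.41 to -0.01), and it was the member that passed at an unadjusted p, 0.0453, but not after adjustment over all genes (adjusted p = 0.944). Averaged over genotypes it was -0.14 (-0.28 to 0.01), or -0.09 without VERCUR-CD mouse 2. Of the 9 members, groups did not overlap in 0 for the co-treatment in WT, 0 in CD and 0 with the genotypes pooled, beside 9.72%, 8.34% and 0.076% of all genes.

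**Figure D3:**
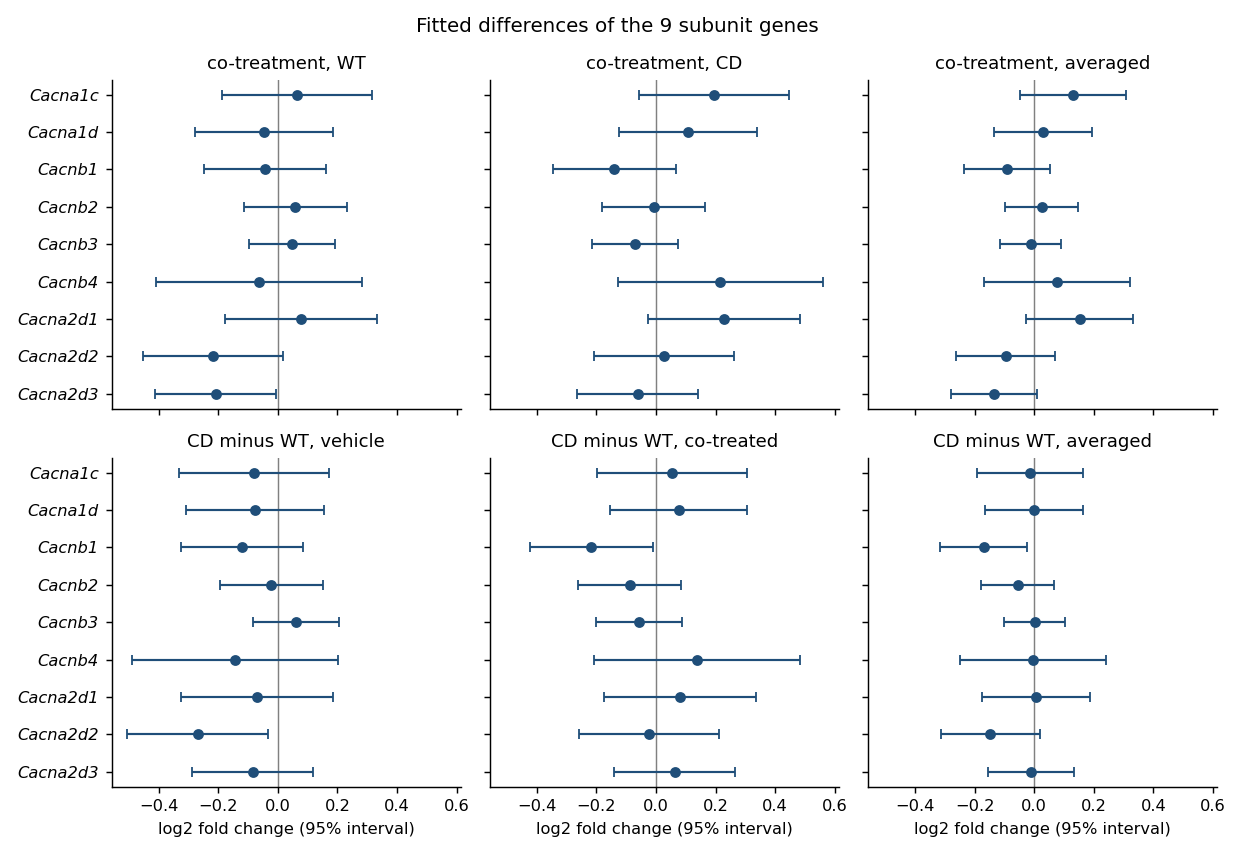
Log2 fold change of each subunit gene (points) with its 95% interval (bars) in 6 comparisons, from 1 limma fit of the 4 groups; the vertical line marks no difference. Intervals that leave out 0 without passing the adjusted threshold are those of Cacna2d3 for the co-treatment in WT, Cacna2d2 for CD minus WT under vehicle, and Cacnb1 for CD minus WT under co-treatment and averaged.

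The deletion did not change any of the 9 genes past the threshold either. Of all genes tested, 0.257% were called for CD against WT under vehicle, 0.146% under co-treatment and 0.321% averaged over treatments, and 0 of 9 members were called in each. At an unadjusted p under 0.05, 11.8%, 4.1% and 9.64% of all genes passed, and 1 member passed in each comparison. Under vehicle, 8 of the 9 members were lower in CD, beside 8670 of the 17111 genes tested. The median log2 fold change of the members was -0.08 beside -0.003 for all genes. Genes with the greatest summed exon length, chosen as above, also differed between these libraries. Relative to the median over all mice, their median (log2) was -0.078, 0.025 and -0.068 in VEH-CD mice 1, 2 and 3. It was -0.002, 0.049 and 0.075 in VEH-WT mice 1, 2 and 3. Whether this bears on the median of the members was not tested. The groups did not overlap for 3 members, all lower in CD, beside 20.6% of all genes in either direction and 11.4% lower in CD. These were Cacnb4, whose log2 difference was -0.14 (95% interval -0.49 to 0.20), Cacna2d3, at -0.09 (-0.29 to 0.12), or 0.0017 once the libraries were smoothed on exon length and GC content, and Cacna2d2, at -0.27 (-0.50 to -0.03, unadjusted p = 0.0281, adjusted p = 0.354). The gap was narrow in each: the highest VEH-CD mouse and the lowest VEH-WT mouse had 10208 and 10227 normalized counts of Cacnb4, 4527 and 4529 of Cacna2d3, and 1669 and 1712 of Cacna2d2. Without VEH-WT mouse 3 the differences were -0.09 for Cacnb4, -0.06 for Cacna2d3 and -0.17 for Cacna2d2.

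Under co-treatment, 4 of the 9 members were lower in CD and the groups did not overlap for 1, Cacnb1, which was lower, beside 7.74% of all genes in either direction and 3.83% lower in CD. Cacnb1 had 8545, 10043 and 8545 normalized counts in VERCUR-WT and 8136, 7299 and 7855 in VERCUR-CD, with 8771, 10521 and 8698 in VEH-WT and 8098, 9569 and 8054 in VEH-CD. The difference of CD from WT was -0.22 (95% interval -0.42 to -0.01, adjusted p = 1.00) under co-treatment and -0.17 (-0.31 to -0.02, unadjusted p = 0.0260, adjusted p = 0.431) averaged over treatments. Without VERCUR-WT mouse 2 the first of these was -0.14. Cacna2d2 had -0.15 averaged over treatments (-0.31 to 0.02, adjusted p = 0.581), or -0.09 without VERCUR-WT mouse 3. The groups of 6 overlapped for all 9 members averaged over treatments, beside 1.05% of genes without overlap. The interaction of genotype and co-treatment, which tests whether the co-treatment acted differently in CD, called 0% of all genes. At an unadjusted p, 6.05% passed it, and 0 members did. The estimate farthest from 0 was that of Cacnb4, 0.28 (-0.21 to 0.77, adjusted p = 0.820), which was 0.03 without VERCUR-CD mouse 2 and 0.48 without VERCUR-CD mouse 1.

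Single libraries stood out in several of these genes. The median CV of the members over the 12 mice was 10.82%, beside 10.35% for all genes tested and 6.72% for the 5620 genes at least as high as the lowest member. VERCUR-CD mouse 2 was the highest of the 12 for 4 members and the lowest for 2. Relative to the median over all mice, Cacnb4 was 0.62 (log2) higher in it, Cacna2d1 0.41, Cacna1c 0.37 and Cacna1d 0.30, while Cacnb1 was at -0.23, Cacnb3 at -0.19 and Cacna2d3 at -0.26. These signs followed the GC content of the longest transcript, apart from Cacna2d3. The members above 0 had at most 50.3% GC, and Cacnb1 and Cacnb3 had 59.7% and 61.3%. The size of the deviation followed GC content less closely: Cacnb2, the member of lowest GC content (39.0%), was at only 0.12. In VERCUR-CD mouse 1 of the same group the low-GC members were the lowest, with Cacnb4 at -0.27, Cacna2d1 at -0.18 and Cacnb2 at -0.17. Others were below 0 as well, with Cacna1d close to these at -0.15, Cacna1c at -0.10 and the GC-rich Cacnb1 at -0.07. Each library was also smoothed on exon length and GC content before the fit. The co-treatment difference averaged over genotypes was then 0.09 for Cacna1c, 0.09 for Cacna2d1, 0.10 for Cacnb4 and 0.03 for Cacna1d, with 0 members called. Without smoothing the values of these genes were 0.13, 0.15, 0.08 and 0.03, so that of Cacnb4 did not fall.

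**Figure D4:**
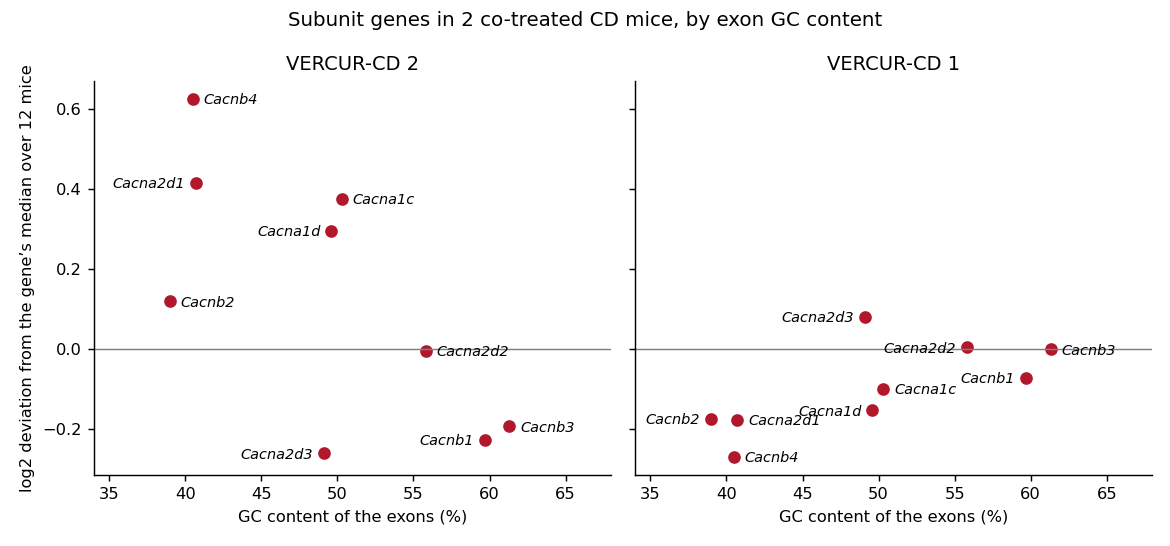
Log2 deviation of each subunit gene from its median over the 12 mice (vertical axis) against its GC content (horizontal axis, percent) in VERCUR-CD mice 2 and 1. The GC content, labelled as that of the exons, is that of the longest annotated transcript. In mouse 2 the deviations run from 0.62 for Cacnb4, at 40.5% GC, to -0.26 for Cacna2d3, at 49.1%, and Cacnb1 and Cacnb3, the GC-richest, lie below 0; in mouse 1 Cacnb4 is the lowest, at -0.27.

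The levels of Cacna1c across the 12 mice ran with those of Cacna2d1 (Pearson r = 0.909 of log2 values), Cacnb4 (0.819) and Cacna1d (0.80), and Cacnb4 ran against Cacnb3 (-0.826). These values are a description of 12 libraries that share the composition differences given above, with VERCUR-CD mouse 2 at an end of each. The genes whose pattern was most like that of Cacna1c over the 12 mice were Astn1 (r = 0.984), Zbtb6 (0.981) and Dock4 (0.980). For Cacna1d they were Diaph2 (0.939), Nr1d2 (0.937) and Tent4b (0.937). The longest transcripts of these 6 genes had a GC content between 39.9% and 49.6%.

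Cacna2d3, and in part Cacna2d2, moved with another feature of the libraries, the markers of striatal neurons (Drd1, Drd2, Ppp1r1b, Adora2a and Rgs9). All 5 were detected in every library. Their summed level was lowest in VERCUR-WT mice 1 and 2 and VERCUR-CD mice 2 and 3, at 5395 to 6625 normalized counts. It was between 10929 and 12376 in VEH-WT mice 1 and 2 and VEH-CD mice 2 and 3, and between 18977 and 25455 in the remaining mouse of each group. By group it ran from 11339.62 to 21809.52 in VEH-WT, from 10929 to 25086 in VEH-CD, from 5395 to 25455 in VERCUR-WT and from 5739 to 18977 in VERCUR-CD. The 4 mice with the lowest sums had 3737, 3856, 3766 and 4285 normalized counts of Cacna2d3, the lowest 4 of the 12. The 4 mice with the highest sums had between 4496 and 4899. Cacna2d2 did not separate in this way: the 4 mice with the lowest sums had 1512, 1430.04, 1615 and 1473, while VEH-CD mice 2 and 3, with higher sums, had 1491 and 1469. With the logarithm of the sum as a covariate, added after the data were seen, the co-treatment difference averaged over genotypes was -0.05 for Cacna2d3 and -0.003 for Cacna2d2. In WT it became -0.13 for both. The covariate itself differed with the co-treatment: averaged over genotypes all 5 markers were lower, with a median log2 fold change of -0.945, though 0 were called. A difference that goes with the co-treatment and one that goes with these markers therefore cannot be told apart in this fit. In bulk tissue, fewer cells of a type and less RNA per cell cannot be told apart, and the part that the dissection had in these differences was not tested.

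**Figure D5:**
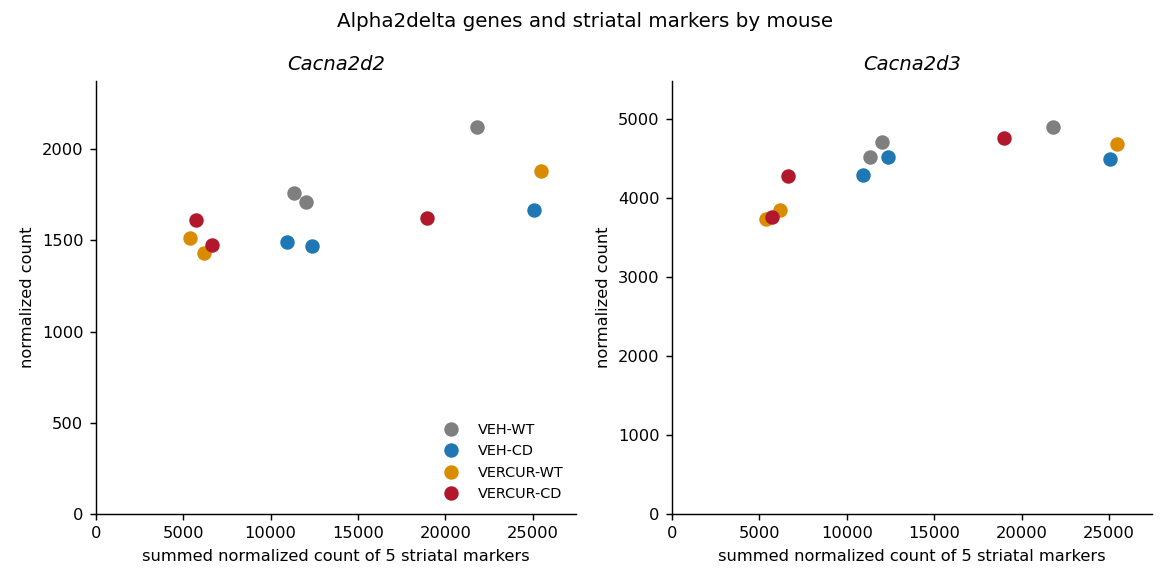
Normalized count of Cacna2d2 (left) and Cacna2d3 (right) in each mouse against the summed normalized count of the 5 striatal markers, all axes from 0, coloured by group. The 4 mice at the left, with sums of at most 6625, are VERCUR mice and hold the 4 lowest values of Cacna2d3, and each group has 1 mouse at the right, with a sum of at least 18977.

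Genes that act with or beside these subunits were read in the same fits, and none passed the threshold for the co-treatment, the deletion or their interaction. Of 16 regulators of the channels, which include RGK proteins that hold the channels back, STAC proteins and calmodulins, 8 were higher and 8 lower with the co-treatment averaged over genotypes, and 0 were called. The extremes were Rem2, an RGK protein induced by neuronal activity, at -0.49 (95% interval -1.19 to 0.21), which turned to 0.0077 with the striatal markers as a covariate, and its relative Rem1 at 0.29 (-0.38 to 0.96). For the genotype averaged over treatments they were Stac3, an adaptor best known from skeletal muscle, at -0.78 (-1.33 to -0.22, adjusted p = 0.325), and Rem1 at 0.28. Gem, another RGK protein, is named because of its values and lies outside the rule for named genes. Its log2 difference was -1.12 for CD against WT under vehicle (-1.70 to -0.53, unadjusted p = 0.00122, adjusted p = 0.144), and -0.82 without VEH-WT mouse 2. The co-treatment in WT gave -0.96 (-1.54 to -0.38, adjusted p = 0.944), or -0.66 without the same mouse, and the interaction gave 1.21 (0.39 to 2.04, adjusted p = 0.816).

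Of 5 extracellular ligands linked to alpha2delta, the thrombospondins and Comp, 0 were called for the co-treatment averaged over genotypes. At an unadjusted p, 2 passed, both lower, beside 2.96% of all genes. They were Thbs4 and Comp, the latter at -0.73 (95% interval -1.38 to -0.08, limma, unadjusted p = 0.030). Thbs4 had the lowest value, -0.85 (95% interval -1.65 to -0.04, adjusted p = 1.00), and Thbs1 the highest, 0.21, which turned to -0.0026 with the striatal covariate. For the genotype, Thbs2 had -0.13 and Thbs4 0.65. The remaining L-type pore in the table, Cacna1s, known from skeletal muscle, was near the floor of detection at 31.4 ± 9.5 normalized counts (SD, n = 12), and the alpha2delta gene Cacna2d4, known from the retina, was at 128.0 ± 20.3. Their co-treatment differences were 0.10 and 0.00, and their genotype differences 0.37 and 0.17, with adjusted p values from 0.621 to 1.00. Cacna1f, the pore of the retina, was not in the table.

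Of 20 genes that read the calcium signal in the cell (CaM kinases, calcineurin, NFAT, CREB and MEF2 factors), 14 were higher and 6 lower with the co-treatment averaged over genotypes, and 0 were called. Camk2a, the main CaM kinase of excitatory neurons, was the highest at 0.16 (95% interval 0.00 to 0.32, adjusted p = 1.00) and Nfatc4 the lowest at -0.12. For the genotype, Ppp3ca, a catalytic subunit of calcineurin, had 0.13 (adjusted p = 0.407) and Nfatc1 -0.15. Of 15 genes of calcium pumps, exchangers and stores, 9 were higher and 6 lower, with 0 called. Ryr3 and Itpr2, both release channels of the endoplasmic reticulum, had -0.17 and 0.17 for the co-treatment, and the value of Ryr3 turned to 0.0107 with the striatal covariate. Itpr1 had 0.25 (0.06 to 0.44, adjusted p = 0.364) and Itpr2 -0.09 for the genotype.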

How the data were processed

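The groups of the 12 samples were taken from the labels, and columns were matched to samples by name. Reads had been aligned with STAR 2.5.3a on GRCm38 per the labels, and the authors deposited gene counts divided by 1 factor per sample (normalized counts). The counting program, its strand setting and the normalization are not given in the sources used here. All values of up to 100 reads were whole multiples of 1 step per sample, within 0.1 of a step, and the numbers of reads follow from these steps. The authors' 2 further tables, with relative expression of genes they selected, were not used.

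Genes with a mean of at least 10 entered a limma fit (version 3.58.1, R 4.3.3) of log2(normalized count + 1), with 1 mean per group over all 12 mice and an intensity trend. Fold changes refer to that scale. Tests were two-sided, with Benjamini-Hochberg adjustment of p over 17111 genes. A gene was called at an adjusted p under 0.05 and a change of at least 25%, the interaction at the adjusted p alone. The test was checked on simulated data. The named genes were the 9 members, the gene with the highest and the one with the lowest co-treatment and genotype difference of each list, and any called gene of a list. The genes overlapping a member and the 3 genes most like each pore gene were also named. Gem and Comp were added after their values were seen. The members and lists were chosen with earlier results of these data known. The comparisons share control groups. Replicate numbers did not pair the mice: deviations of the same number correlated between -0.35 and 0.27 over 18 pairs. Positions are those of GENCODE M21. Alternatives were other pseudocounts, filters and scalings, a CV limit, fits of the compared groups only or without the trend, a replicate block, other call rules, each mouse left out, and, added after the data were seen, voom on the recovered reads, smoothing on length and GC content, and summed striatal markers as a covariate, also without VERCUR-CD mouse 2. A striatal marker of the planned list is not reported here, and the sums are without it.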

Additional observations from a re-analysis of the deposited data

How the results depend on the processing

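The 0 members called in each of 7 comparisons stayed 0 in all 192 recalculations. Of the 553 values of the members' differences under alternatives, 537 kept their direction and their side of the threshold and 16 changed sign, none past the threshold, and of 655 values for the other named genes 14 changed sign. With length and GC content smoothed, the co-treatment averaged over genotypes gave -0.0378 for Cacnb2 and 0.0327 for Cacnb3, and the genotype under vehicle gave 0.0017 for Cacna2d3. With the striatal covariate, the co-treatment averaged over genotypes gave -0.0093 for Cacna1d, -0.0024 for Cacnb2, 0.0077 for Rem2, -0.0026 for Thbs1 and 0.0107 for Ryr3. With that covariate and without VERCUR-CD mouse 2 it gave -0.0427 for Cacna1d, -0.0232 for Cacnb2, 0.0156 for Cacnb3, -0.0611 for Cacnb4, 0.0259 for Rem2 and -0.047 for Thbs1, with -0.0415 for Cacnb4 in CD and -0.0304 for Cacna1e for the genotype averaged over treatments. Quantile normalization gave -0.0093 for Cacna2d4. The cause of these shifts was not tested.

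With each mouse left out in turn, the co-treatment averaged over genotypes ranged from -0.0313 to 0.0806 for Cacna1d, from -0.0136 to 0.0598 for Cacnb2, from -0.0394 to 0.0264 for Cacnb3, from -0.0473 to 0.1759 for Cacnb4, from -0.0848 to 0.0792 for Cacna2d4 and from -0.0343 to 0.2634 for Cacna1s. Cacnb4 in CD ranged from -0.0302 to 0.4163, and Cacna1e for the genotype averaged over treatments from -0.0361 to 0.0856. VERCUR-CD mouse 2 was the mouse without which Cacna1d, Cacnb2, Cacnb3, Cacnb4 and Cacna1e changed sign, Cacna1d also did so without VEH-WT mouse 1, Cacna1s without VEH-CD mouse 2, and Cacna2d4 without any 1 of 5 mice. The replicate block changed no call of a member, and 1 of 12 mice correlated best with its own number. Over all genes, the block called 40 for the genotype under vehicle, 26 under co-treatment and 49 averaged, beside 44, 25 and 55.

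Over all genes, the count for the genotype under vehicle, 44, rose to 81 with the CV limit, to 71 without VERCUR-CD mouse 2 and to 89 without it and with the striatal covariate. It fell to 24 without VEH-WT mouse 2, VEH-CD mouse 1 or VEH-CD mouse 3, and to 28 without VEH-WT mouse 3. The co-treatment, at 0 genes, reached at most 3 in WT, 2 in CD and 2 averaged, and the interaction at most 1. At an unadjusted p with the same limit on the change, the counts were 406 in WT, 284 in CD, 187 averaged, and 801, 343 and 440 for the genotype under vehicle, under co-treatment and averaged, while 1035 passed for the interaction, which has no limit on the change. The 2 count-model alternatives planned on the recovered reads were not run, and voom on the same reads took their place. With 3 mice per group, differences in the members within the 95% intervals given could not be told from none.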

Other observations

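The pores of the other voltage-gated calcium channels, with which the same beta and alpha2delta subunits can assemble in part, were also measured. Per kb of exon, Cacna1a, the P/Q-type pore, was at 862.6 ± 38.5 (SD, n = 12 mice), Cacna1i, a T-type pore, at 685.5 ± 48.2, and Cacna1b, the N-type pore, at 524.5 ± 46.0. Cacna1g and Cacna1h, the other T-type pores, were at 409.8 ± 27.7 and 245.7 ± 18.2, and Cacna1e, the R-type pore, at 266.9 ± 29.9. Each of these means was above those of Cacna1c and Cacna1d, on a scale that depends on the exon length annotated for each gene. None of the 6 was called in any comparison. With the co-treatment averaged over genotypes, 3 were higher and 3 lower, from -0.04 for Cacna1g to 0.09 for Cacna1e on the log2 scale. For CD against WT averaged over treatments, the lowest value was -0.10 for Cacna1i (95% interval -0.21 to 0.01, limma, adjusted p = 0.555) and the highest 0.03 for Cacna1e.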
